A study of Caenorhabditis elegans with 4 samples.

Results

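The X chromosome carried 479 of the 2791 HLH-30 binding sites in the combined peak list of Caenorhabditis elegans L4 hermaphrodites. These sites are all the intervals that the list places on X, without a cut on strength or width. The choice of X was made with earlier results of these data known. The list of ChIP replicate 1 held 289 X peaks among 1527, and that of replicate 2 held 295 among 1559. The other 2312 combined peaks, on the 5 autosomes, serve as background.

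HLH-30, the C. elegans relative of mammalian TFEB, belongs to the helix-loop-helix transcription factors and is known as an activator of autophagy, lysosome and fat metabolism genes. Hermaphrodites have a pair of X chromosomes, and dosage compensation lowers their X-linked transcription in somatic tissue. Genes used in the germ line are known to be scarce on X. Worm autosomes have gene-rich centres flanked by repeat-rich arms, a contrast that is weaker on X.

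Both ChIP libraries came from strain OP433. It carries the transgene wgIs433, brought in by bombardment, in which hlh-30 is fused to TY1, EGFP and FLAG and accompanied by the rescuing unc-119(+). The mutant background is unc-119(ed3) on chromosome III. The genotype lists no lesion in hlh-30 itself, and the place where the transgene integrated is not given in the sources used here. Worms were grown at 20 °C, fixed in 2% formaldehyde and used whole, so each peak pools all tissues in which the tagged protein is present. Chromatin was collected with an antibody against GFP. The 2 input libraries of the same strain are not analysed here, since the 3 lists used hold intervals only.

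Each interval has a position on build WS180 and a q-value, that is, a p-value of the peak caller after adjustment for the number of tests. Strength is given below as −log10 q, on which larger is stronger. The lists hold no read counts, so depth is unknown. A q-value grows smaller with depth and with width, and levels of −log10 q are therefore compared within a list. No sequence or annotation of WS180 was used here, so sites are named by coordinate. X and the autosomes are read from the same 2 libraries, and an exact permutation test of 2 such pairs cannot give a two-sided p below 0.5, so their differences are described within each replicate and not tested. The 95% Wilson intervals cover counting error only, and neighbouring peaks are not independent.

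The 10 strongest X peaks lay in 8 of the 10 length deciles of the chromosome (numbered from the left end), and each was wider than 1000 bp. All 10 overlapped a peak of both replicates, and the ranks of their partners reached 26 in replicate 1 and 30 in replicate 2. X contributed 8 of the 25 smallest q-values of the whole list and 18 of the 100 smallest, while its share of all combined peaks was 17.2%, so the latter count is close to that share. The former count includes ranks 4, 6 and 9, which are intervals of a single run described below. Replicate 1 called the intervals at ranks 4 and 6 as 1 peak, so the former count depends on how that run was divided.

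The strongest X peak lay near the right end at X:16929311-16931997. Its −log10 q was 215.0 in the combined list, 123.9 in replicate 1 and 110.0 in replicate 2. Its rank was 3 in the combined list, 2 in replicate 1 and 1 in replicate 2. Next to it in strength stood 3 peaks of the stretch from 6.7 to 6.8 Mb, which are described below. After these came X:2969397-2973230, 3834 bp wide, with −log10 q of 133.6 in the combined list, 72.8 in replicate 1 and 52.2 in replicate 2. It ranked 11 in replicate 1 and 25 in replicate 2.

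The other 5 of the 10 were close to each other in strength. X:13143363-13145609 had a combined −log10 q of 109.7, with 54.1 and 52.9 in replicates 1 and 2. X:7951312-7954077 had 107.2, with 54.2 and 51.9. X:1503383-1505273 had 105.1, with 54.3 and 52.2. In each list these 3 sites stood at nearly the same value. X:10567993-10569168, at 1176 bp the narrowest of the 10, had 101.8, with 59.4 and 49.5. X:14818248-14819727 had 101.3, with 57.2 and 52.7.

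The strongest peak of each decile of X reached a combined −log10 q of at least 83.5. The strongest peak of decile 3 was X:4141982-4143801, with −log10 q of 83.5 in the combined list, 45.1 in replicate 1 and 44.5 in replicate 2. That of decile 7 was X:11468201-11475294, the widest X peak of the combined list at 7094 bp. Its combined value was 86.4, and its strongest partners had 32.3 in replicate 1 and 26.3 in replicate 2. Replicate 1 divided this interval into 3 peaks and replicate 2 into 2.

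The stretch from 6.7 to 6.8 Mb held 5 combined peaks, and 4 of them formed an almost unbroken run of 15465 bp, X:6735260-6750724. Peaks covered 92.7% of the run in the combined list, 85.3% in replicate 1 and 85.9% in replicate 2. The run starts and ends at nearly the same bases in all lists. Its left edge lay at 6735260, 6735273 and 6735306 in the combined list, replicate 1 and replicate 2, and its right edge at 6750724, 6750747 and 6750711. Within these edges the lists divided the sequence differently.

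In the combined list the first interval of the run, X:6735260-6739922, had −log10 q of 176.4 and a width of 4663 bp. The second, X:6740186-6745927, began 263 bp further on, had −log10 q of 205.6 and was 5742 bp wide. A weaker interval followed at X:6746572-6748529 with −log10 q of 35.9. The last, X:6748755-6750724, had −log10 q of 155.0. In this list the run was thus strong in its left and right parts, with a weaker interval between them.

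Replicate 1 called 3 peaks there. One peak, X:6735273-6745888, spanned 10616 bp with −log10 q of 185.5, the largest value of that list. The others had 24.8 and 77.8. Replicate 2 called 5 peaks, with −log10 q of 17.4, 78.4, 95.9, 18.9 and 70.1 from left to right. The weak interval in the right part of the run was therefore present in both replicates, with the strongest values to its left. Replicate 2 had a further weak peak, that of 17.4, at the left edge of the run.

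The remaining combined peak of the stretch, X:6728855-6729923, lay 5336 bp before the run with −log10 q of 5.44 and was in neither replicate. No other combined peak lay in the 85590 bp before this peak or in the 53603 bp after the run. The 4 intervals of the run amount to 3.64% of all sequence under X peaks in the combined list, and the run to 5.63% in replicate 1 and 5.64% in replicate 2.

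**Figure D1:**
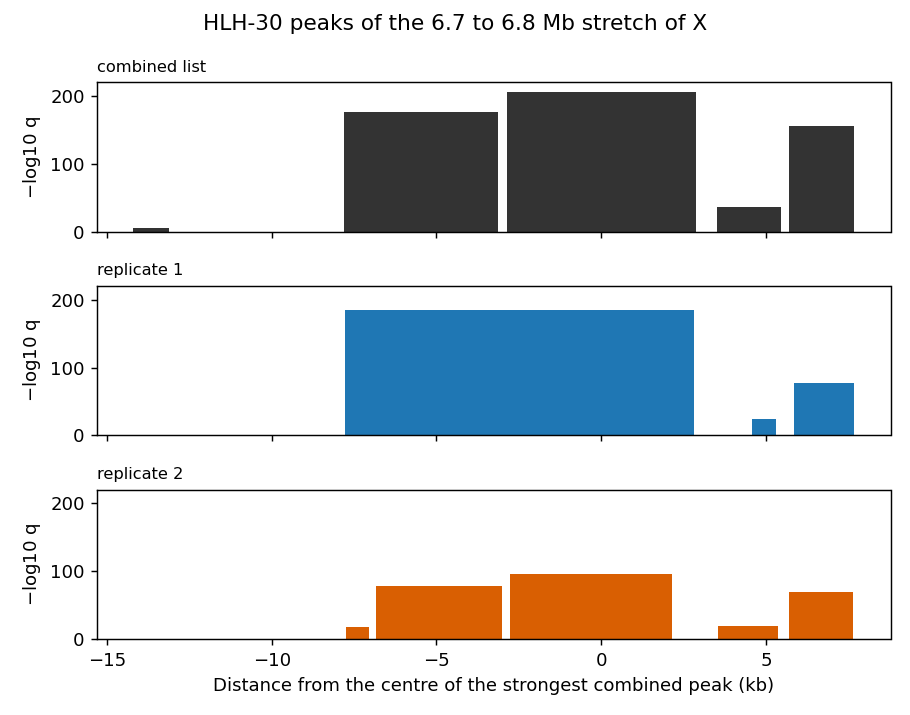
HLH-30 peaks of the 6.7 to 6.8 Mb stretch of X in the combined list, replicate 1 and replicate 2, drawn as bars whose width is the peak's extent (distance in kb from the centre of the strongest combined peak) and whose height is −log10 q. The outer edges of the run coincide in the 3 lists, while replicate 1 joins the left part into 1 peak of 10616 bp.

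A second region was also densely covered, more so in the combined list than in the replicates. The group X:11464105-11483265 held 5 combined peaks, all of them in both replicates, which covered 78.9% of its 19161 bp. In windows of 20 kb moved along X, it gave the largest covered length of the combined list, 15110 bp, ahead of the 14333 bp around the 6.7 Mb run. In the replicates the order was the other way round. The 6.7 Mb window was covered over 13197 bp in replicate 1 and 13241 bp in replicate 2, and the group at X:11464105-11483265 over 9860 and 10718 bp. Its peaks were weaker, with replicate −log10 q from 4.90 to 32.3 in replicate 1 and from 4.05 to 26.3 in replicate 2.

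The central part of X, from 33.3% to 66.7% of its length, held a smaller share of peaks than that of any autosome. Of the 479 combined peak centres, 142 (29.6%) lay in the left part, 139 (29.0%, 95% interval 25.1 to 33.2) in the central part and 198 (41.3%, 37.0 to 45.8) in the right part. On the autosomes 43.5% of the 2312 combined peaks lay in the central part, with single autosomes from 40.2% on IV to 48.5% on V. The share on X was the lowest of the 6 chromosomes in each list. It was 28.7% in replicate 1, where the autosomes ran from 33.3% to 50.2%, and 30.2% in replicate 2, where they ran from 37.6% to 51.0%. The replicates gave 29.4% ± 1.03 on X and 44.0% ± 1.22 over the autosomes (SD, n = 2), a difference wider than the spread between them. Within each library the share on X was lower than that of the autosomes together, by 14.4 percentage points in replicate 1 and 14.7 in replicate 2. The autosome nearest to X in each list was IV, whose 95% intervals of 25.4 to 42.3% and 29.4 to 46.6% in replicates 1 and 2 overlapped those of X, 23.8 to 34.2% and 25.2 to 35.6%. In replicate 2 the interval of III, 35.2 to 45.5%, also met that of X.

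The right part of X was the fullest. It held 43.3% of X peaks in replicate 1 and 42.4% in replicate 2, or 42.8% ± 0.622 (SD, n = 2). This was the highest share of a right part among the 6 chromosomes in every list, although chromosome II came close, with 42.0% in replicate 1 and 39.4% in replicate 2, inside the intervals of X. The left part of X held 27.7% ± 0.403 in the replicates, against 26.8% ± 0.451 over the autosomes.

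**Figure D2:**
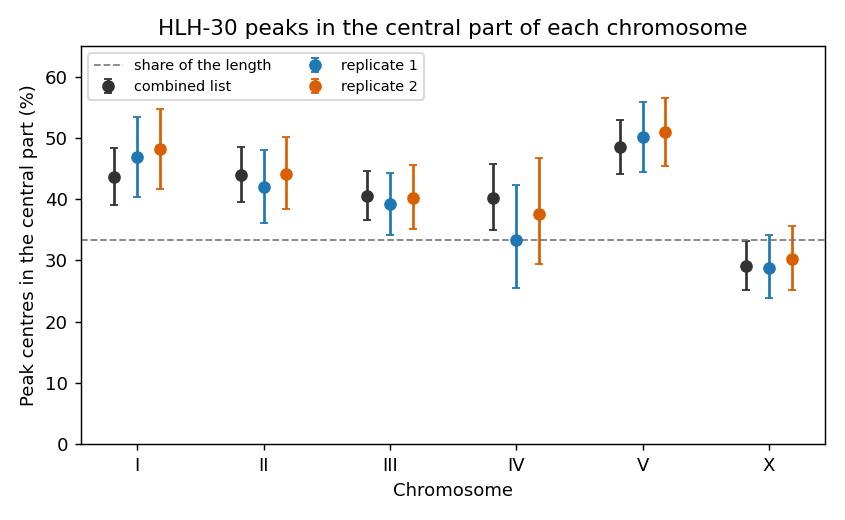
Share of HLH-30 peak centres in the central part of each chromosome (percent of that chromosome's peaks) in the combined list, replicate 1 and replicate 2, with 95% Wilson intervals. The 3 values of X, from 28.7% to 30.2%, lie below those of each autosome in the same list, and the dashed line marks 33.3%, the share of the length.

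Length deciles showed a low point within the central part. As a whole, the central part held 83 and 89 peaks in replicates 1 and 2, and the left part 81 in each. Decile 6, from 8.84 to 10.6 Mb, held 24 combined peaks, or 13.6 peaks per Mb, the fewest of any decile of X. Replicate 1 had 18 peaks there and replicate 2 had 17, also the fewest in each. The same decile held 5.01% of X peaks and 13.8% of autosomal peaks in the combined list, 6.23% and 14.0% in replicate 1, and 5.76% and 15.0% in replicate 2. Over the 5 autosomes together it was the fullest decile in all 3 lists, but decile 7 came close, with 13.7%, 13.9% and 14.0%. In the combined list decile 6 was the fullest on III and V only. On I and IV decile 7 was the fullest, and on II decile 5. Single autosomes held from 11.1% of their peaks in decile 6 on IV to 18.5% on V.

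Decile 8, from 12.4 to 14.1 Mb, was the fullest of X in the combined list with 72 peaks, or 40.7 per Mb. It held 42 peaks in replicate 1 and 41 in replicate 2. In replicate 2 decile 10 exceeded it by 1 peak, with 42. Decile 1 held 42, 22 and 23 peaks in the combined list, replicate 1 and replicate 2, and decile 2 held 38, 22 and 23. These densities at the left end, 23.7 and 21.5 per Mb in the combined list, lay below the 27.1 per Mb of X as a whole.

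**Figure D3:**
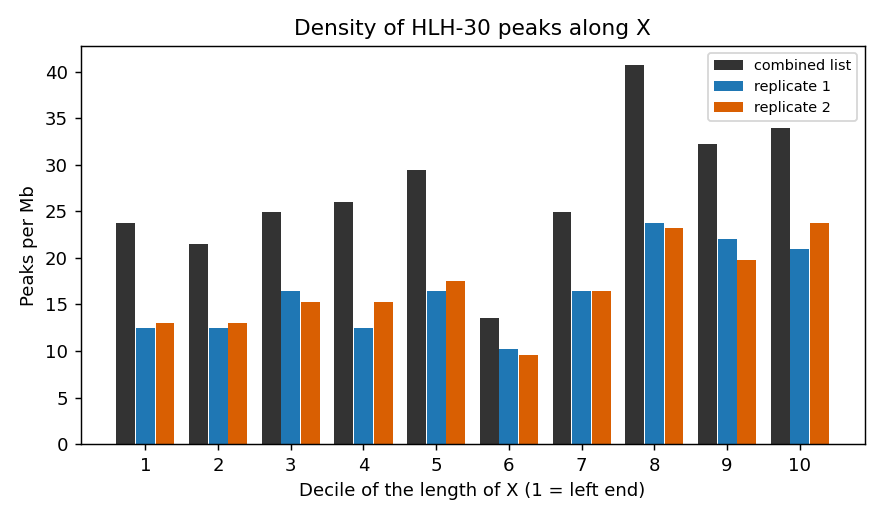
HLH-30 peaks per Mb in each decile of the length of X, numbered from the left end, in the combined list, replicate 1 and replicate 2. Decile 6 is the lowest in all 3 lists, at 13.6, 10.2 and 9.61 peaks per Mb, and the 3 rightmost deciles are the highest in each list.

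By strength quintiles of the whole combined list, the central part held 33.6%, 23.5%, 24.7%, 33.3% and 28.8% of X peaks from the strongest quintile to the weakest. The autosomes had 45.5%, 42.5%, 44.4%, 42.7% and 42.5%. X was lower in each quintile, but in the fourth, with 99 X peaks, its interval of 24.8 to 43.1% held the autosomal value. In the strongest and the fourth quintile the share on X was close to the 33.3% of the length. Among the 241 X peaks called in both replicates the central part held 29.5%, and among the 152 called in neither it held 28.9%.

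Peaks of the central part had a median strength close to that elsewhere on X and a larger median width. Their median −log10 q was 9.12, against 9.13 in the left part and 9.09 in the right part. Their median width was 706 bp, against 625.5 bp on the left and 558.5 bp on the right. The replicates gave 721 and 690 bp in the central part, against 567 to 586 bp in the right part and 570 and 581 bp in the left part. Wider central peaks were not particular to X. In the combined list the central part also had the largest median width on II, IV and V, at 515, 547 and 565.5 bp. On I the left part was the widest, at 541 bp, and on III the right part, at 514.5 bp. Of the 113 X peaks in the strongest quintile of the whole list, 38 lay in the central part, 27 in the left part and 48 in the right part. As shares of each part's peaks these were 27.3% (20.6 to 35.3), 19.0% (13.4 to 26.3) and 24.2% (18.8 to 30.7), with overlapping intervals.

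Counted in bins of 250 kb, X had a median of 6 combined peaks per bin. Of the 71 bins, 3 held no combined peak and none in either replicate, while 17 bins with 10 or more peaks held 199 peaks (41.5%). Of these 17 bins, 11 lay in the right part, 4 in the left and 2 in the middle. Replicate counts differed by 2 peaks or fewer in 68 bins (95.8%) and by at most 4. Across bins the counts of the replicates gave 0.92 for both Pearson's r and Spearman's rho (71 bins, which share the libraries, so this is a description). The variance of the bin counts was 1.95 times their mean in the combined list, 2.04 in replicate 1 and 2.14 in replicate 2, within the range of single autosomes in each list, which ran from 1.67 to 2.78 in the combined list.

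The fullest bin, from 13.25 to 13.5 Mb, held 19 combined peaks, 13 of replicate 1 and 15 of replicate 2. It was rich in sites rather than in strength, with a median −log10 q of 8.71, and its strongest peak, X:13348307-13351702, reached 36.4 at rank 227. Of its 19 peaks, 9 were in both replicates and 4 in neither. The next fullest bin, from 8 to 8.25 Mb, held 16 combined peaks, 12 of replicate 1 and 13 of replicate 2. This bin lies in the central part, which held 139 combined peaks in all, against 142 in the left part. Its median −log10 q was 16.9, and 12 of its 16 peaks were in both replicates, more than in any other bin of X. Bins from 4 to 4.25 Mb and from 14.75 to 15 Mb followed with 13 peaks each.

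The longest interval of X with no combined peak ran for 443 kb, X:1627481-2070483, and neither replicate had a peak in it. The second, of 329.7 kb at X:14170011-14499756, and the next 3, of 253.4, 249.9 and 245.5 kb, held no peak centre of either replicate. The 249.9 kb gap, X:6818410-7068326, lies shortly beyond the 6.7 Mb run. The first peak of X began at 323981 in the combined list, at 323992 in replicate 1 and at 323985 in replicate 2.

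Spacing on X was within the range of the autosomes. The median distance between neighbouring combined peaks was 18303 bp, and the autosomes ran from 11102 bp on III to 27322 bp on IV. A neighbour within 5 kb was present for 223 X peaks (46.6%, 42.1 to 51.0), and for 51.1% of autosomal peaks. In the replicates this share was 41.8% ± 1.09 on X and 44.8% ± 2.00 over the autosomes (SD, n = 2). By part of X, the share with such a neighbour was 31.7% (24.6 to 39.7) on the left, 48.2% (40.1 to 56.4) in the central part and 56.1% (49.1 to 62.8) on the right. The closest pair, X:4141982-4143801 and X:4144003-4146861, was 201 bp apart. The smallest gap of single autosomes ran from 200 bp on III to 229 bp on IV, so this distance was not particular to X.

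Joining peaks up to 10 kb apart gave 98 groups with 291 peaks (60.8%) and left 188 peaks alone. The number of peaks in a group reached 8, in X:8010616-8036879 and in X:13306799-13337408. These 2 groups were unlike in reproducibility. In the first, 6 of 8 peaks were in both replicates and the median −log10 q was 20.9. In the second, 1 of 8 was in both replicates, 2 were in neither, and the median was 6.29. Of the 14 groups with 5 or more peaks, the 6.7 Mb run and the peak before it had the largest median −log10 q, at 155.0. That stretch was chosen with earlier results of these data known, so its place is a description only.

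The median HLH-30 peak was wider on X than on each autosome in all 3 lists. Its width was 617 bp in the combined list, against 480 bp on III to 533 bp on V. In replicate 1 it was 600 bp, against 473 to 586 bp, and in replicate 2 it was 611 bp, against 471 to 590 bp. Over the replicates the median was 605.5 ± 7.78 bp on X and 517 ± 1.41 bp over the autosomes (SD, n = 2). The autosome that came closest in both replicates was IV, at 588 ± 2.83 bp. Peaks of 1000 bp or more made up 20.9% of X peaks (100 peaks, 17.5 to 24.7) and 15.5% of autosomal peaks. That share was 21.1% and 21.4% in replicates 1 and 2, where the autosomes together had 15.6% and 16.8%, though IV alone had 23.9% in replicate 2.

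Against the autosomes together, the extra width was present at each level of strength. In quintiles of the combined list from strongest to weakest, the median X peak was 1023, 649, 540, 479 and 449 bp wide, and the median autosomal peak 937.5, 563.5, 471, 425 and 389.5 bp. X was the widest of the 6 chromosomes in all 5 quintiles, by only 1 bp over IV in the strongest. In quintiles of each replicate list X exceeded the pooled autosomes in 5 of 5, by 30.5 to 124 bp in replicate 1 and by 8 to 111.5 bp in replicate 2. It was the widest single chromosome in only 2 of 5 in each. In the strongest quintile of replicate 1, X had 939 bp, below IV, I and II at 1325, 1117 and 1016 bp. In the second quintile of replicate 2, X had 639 bp, below IV, V and I at 756, 691.5 and 672 bp. Among peaks in both replicates, IV was wider than X, at 787 against 771 bp, and with peaks up to 10 kb apart joined, I was wider, at 916 against 829 bp. The extremes on X were the 7094 bp peak named above and a 240 bp peak, X:2321763-2322002, which was in neither replicate.

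**Figure D4:**
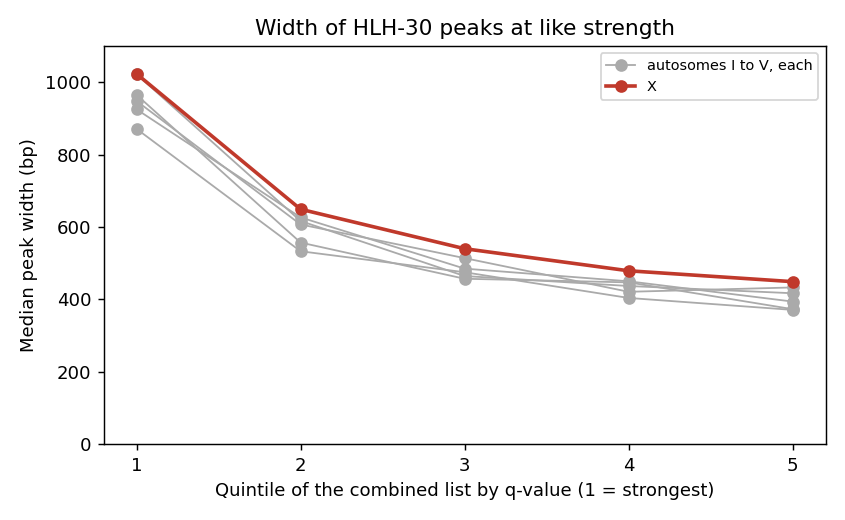
Median width in bp of HLH-30 peaks on X (red) and on each autosome (grey), by quintile of the combined list ranked by q-value with the strongest first. X has the largest median in each quintile, from 1023 bp in the strongest to 449 bp in the weakest, with IV at 1022 bp in the strongest.

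The median −log10 q of X peaks was 9.11 in the combined list, the largest of the 6 chromosomes by a small margin over III at 9.08. It was 7.96 in replicate 1, against 6.90 to 7.67 on single autosomes, and 7.78 in replicate 2, against 6.79 to 7.20. X supplied 113 of the strongest quintile of the combined list (20.2%, 17.1 to 23.7) and 80 of the weakest (14.3%, 11.7 to 17.5), and both intervals hold its 17.2% share of all combined peaks. Width and strength rose together among the 479 X peaks, with a Spearman's rho of 0.54, compared with 0.53 among the 2312 autosomal peaks. Since q depends on width, the place of X in strength and its place in width are not separate observations.

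Of the 479 combined X peaks, 241 (50.3%, 45.9 to 54.8) overlapped a peak of both replicates by at least 1 bp. A further 41 overlapped replicate 1 alone, 45 replicate 2 alone, and 152 (31.7%, 27.7 to 36.0) neither. Among autosomal peaks 43.3% were in both replicates and 39.4% in neither. Single autosomes ran widely, with 27.5% in both on IV and 49.8% on III, so X lay at the upper end beside III. Each of the 113 X peaks in the strongest quintile was in both replicates, as were 91 of 102 in the next quintile, then 34 of 85, 3 of 99 and, in the weakest, 0 of 80. A count of 0 allows a share of up to 3.75% there (3 counts of 80, counting error only). The median −log10 q was 17.5 for X peaks in both replicates, 6.74 for those in either one alone, and 4.88 for those in neither. The strongest X peak in neither replicate, X:593223-593845, had −log10 q of 11.7 at rank 973.

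In a direct comparison 247 of the 289 X peaks of replicate 1 (85.5%, 80.9 to 89.1) were found again in replicate 2, and 248 of the 295 of replicate 2 (84.1%, 79.5 to 87.8) in replicate 1. The autosomal shares were 83.6% and 82.5%, inside these intervals. The centres of a pair were 32.5 bp apart at the median. Across the 247 pairs −log10 q gave a Pearson's r of 0.94, or 0.95 without the 2 pairs farthest from the median, and a Spearman's rho of 0.83, and widths correlated with a rho of 0.88. These describe peaks of the same libraries.

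**Figure D5:**
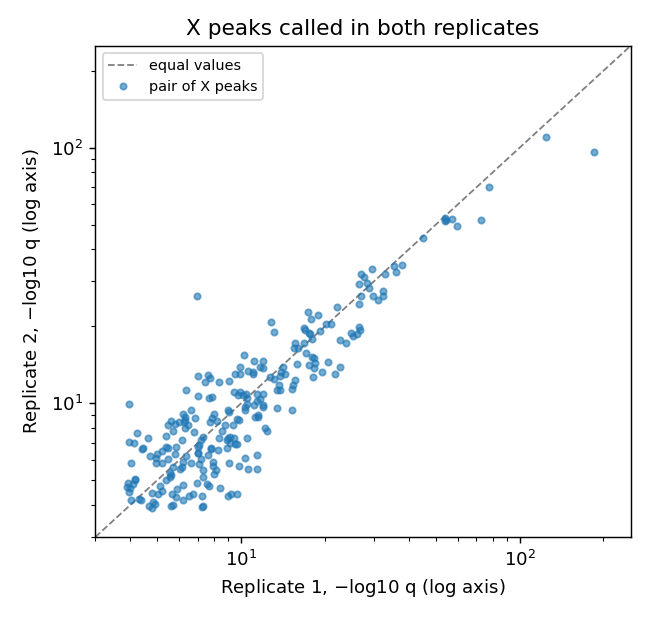
Strength of the 247 pairs of overlapping X peaks, as −log10 q in replicate 1 and replicate 2, on log axes with a dashed line of equal values. The values of the lists rise together, and the point furthest to the right is the 10616 bp peak of replicate 1 at 6.7 Mb.

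The X peaks without a partner were weak. The 42 of replicate 1 had a median −log10 q of 4.46, against 9.13 for the partnered ones, and the 47 of replicate 2 had 4.42, against 8.85. The strongest were X:9552018-9553507 in replicate 1, at 8.06, and X:13327934-13328371 in replicate 2, at 8.80, and both overlapped a combined peak. All X peaks of the replicates except 1 in each overlapped the combined list. The exceptions were X:9999112-10000045 in replicate 1, with −log10 q of 3.92, and X:6665167-6666059 in replicate 2, with 3.89.

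Combined intervals on X were usually the wider ones. Where a combined peak had a single partner, the partner's width was a median 0.91 of the combined width in replicate 1 (275 peaks) and 0.89 in replicate 2 (279 peaks), and starts and ends differed by medians of 32 to 37 bp. The autosomes gave 0.89 in both replicates. In each replicate 7 combined X peaks held 2 or more replicate peaks. In replicate 1, 3 peaks spanned 2 or more combined X peaks, and no replicate 2 peak did.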

How the data were processed

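Per the file headers, the deposited peak lists are on WormBase WS180 and in GFF version 3, and each line names PeakSeq as the caller. The value the authors deposited per interval is a q-value (p-value adjusted for multiple testing). Not given in the sources used here are the aligner, the version and control of the caller, and how the combined list was built. The combined list extends to a q-value of 0.000205, the lists of replicates 1 and 2 to 0.000138 and 0.000136.

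From these lists, −log10 q, width, centre, overlap (at least 1 bp), distance to neighbours (edge to edge), and counts in 3 equal parts, length deciles and 250 kb bins were computed with scipy 1.17.1, pandas 2.3.3 and numpy 2.4.6 under Python 3.11.15. The length of a chromosome is the end of its rightmost peak over the lists, 17685157 bp for X, and thus a lower bound. The functions were tested on simulated intervals. A pair of overlapping peaks joins each replicate 1 peak to the strongest replicate 2 peak it overlaps. Nothing in the labels says whether replicates came from separate cultures, so their spread may be technical.

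The members, the named sites and the measures were chosen with earlier results of these data known. Named sites are those from 6.7 to 6.8 Mb, the 10 strongest on X, the strongest of each decile, the extremes of width and spacing, the fullest bins and the strongest unshared peaks. The 20 kb windows, groups of 5 or more peaks, edge comparisons and strength quintiles were added while the lists were being described. No test was run.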

Additional observations from a re-analysis of the deposited data

How the results depend on the processing

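Across 32 alternatives for 7 values, 13 moved a value by less than the replicate spread, its interval or 1.5 times a count. Here, leaving 1 replicate out means reading the value from the remaining single list. The combined list was not rebuilt, so these settings restate the replicates and do not test the combined result. The replicate spread they are judged against comes from the same lists. The central part of X held 29.0% of peaks, 27.9% in the stronger 50% of the list, 29.5% among peaks in both replicates, 28.7% to 30.2% with 1 replicate left out, and less than each autosome in each replicate, the joined list and these selections. The share with a neighbour within 5 kb fell from 46.6% to 38.4% in the stronger 50%, 38.2% among peaks in both replicates, 44.1% measured between centres, and 41.0% to 42.6% with 1 replicate left out. Median width rose to 768 bp in the stronger 50% and 771 bp among peaks in both replicates, where IV was wider, and 829 bp with peaks up to 10 kb apart joined, where I was wider (916 bp; chosen after seeing the data), and was 600 to 611 bp with 1 replicate left out. The fullest bin, from 13.25 to 13.5 Mb in the combined list and in each replicate, moved to the central part, from 8 to 8.25 Mb, among the stronger 50% (13 peaks) and among peaks in both replicates (12). After joining, bins from 11.5 to 11.75 and from 14.75 to 15 Mb tied at 8. With 1 replicate left out the fullest bin held 13 to 15. The 6.7 to 6.8 Mb stretch held 1 group when so joined, and 3 to 5 peaks with 1 replicate left out. Median −log10 q was 16.6 in the stronger 50% and 17.5 among peaks in both replicates, which follows from the selection. The share in both replicates was 41.5% with centres within 200 bp and 87.6% in the stronger 50%. As a test, no paired analysis was possible because 2 pairs of X and autosomes cannot give a two-sided p below 0.5 in an exact permutation test. The differences within each library are therefore given without a test. In replicates 1 and 2 the central share was lower on X by 14.4 and 14.7 percentage points. The median X peak was wider than the median autosomal peak by 82 and 95 bp. The lists hold no values of the input libraries, so ChIP and input could not be paired. Depth is unknown, so a peak missing from a list is not shown to be unbound.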
